A study of Mus musculus with 3 samples.

Results

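Gene-dense megabases are stretches of the mouse autosomes, 1 Mb long, that carry many genes close together. The rule that picks them reads the design of the array and no signal: 1 Mb bins of build mm9 with 30 or more unique probes and 20 or more distinct gene names. There were 246 such bins among the 2397 autosomal bins that held a probe, or 10.3% of them. They held 22808 of 161460 autosomal probes (14.1%) and 6361 of 20325 gene names (31.3%). A gene-dense bin had a median of 24 names and at most 52, against a median of 6 in the other bins. The names come from the array's own annotation and include transcript accessions: 5024 of the 6361 matched a symbol or synonym in a RefSeq table.

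Gene density varies widely along mammalian chromosomes. Gene-rich stretches tend to be rich in G and C, to lie in open chromatin and to be copied early in S phase, and many hold broadly used genes packed side by side. Others hold arrays of related genes that arose by local duplication, such as the keratins, the kallikreins, which are serine proteases, and zinc finger genes.

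Genomic DNA of 3 neurosphere lines, free-floating cultures of tumour cells, was measured against mouse liver DNA by 2-colour array comparative genomic hybridisation. The lines came from mouse gliomas that were resistant to inhibition of CSF1R, a receptor that macrophages and microglia need, and were cultured for 2 to 3 passages. Line DNA carried Cy5 and liver DNA Cy3 on every array, without a dye swap. The source labels give line 1 a number and liver of its own, while lines 2 and 3 share 1 number and 1 liver label. The number was read here as that of the animal, so lines 2 and 3 may not be independent. The labels used here name no inhibitor, dose, duration, mouse strain, age or tumour model. All 3 arrays lay on 1 slide, so no batch could be compared, and an effect of dye or slide common to the arrays and an effect of the lines cannot be told apart. Whether lines 2 and 3 came from 1 tumour is not stated, so the p-values cover the spread of these 3 arrays alone, which may be technical.

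Each value is the log2 of Cy5 over Cy3 signal, centred on the autosomal median of its array and averaged over the probes of a bin. Values above 0 mean more signal from line DNA than from liver DNA. A change from 2 to 3 copies in every cell would give 0.585. Array probes are short and were designed within a narrow range of G and C, in gene-dense bins as elsewhere: the median over bins of the mean GC content was 37.0% in gene-dense bins and 36.7% in the others. The following probes, from 2 high and 2 low bins described further on, are shown because they are what the bin means are made of. Each is, among the probes of the name with most probes in its bin, the one nearest to the bin mean, and capitals mark G and C.
Phf21b, chr15:84627063-84627122 (mm9), mean of lines 0.18: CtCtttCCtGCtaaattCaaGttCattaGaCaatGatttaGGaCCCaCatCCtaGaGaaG
Hip1, chr5:135911937-135911996 (mm9), mean of lines 0.18: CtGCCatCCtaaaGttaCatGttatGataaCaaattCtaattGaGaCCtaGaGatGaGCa
Insr, chr8:3182248-3182307 (mm9), mean of lines -0.071: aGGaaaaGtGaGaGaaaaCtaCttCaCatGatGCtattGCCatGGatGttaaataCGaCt
Dync2h1, chr9:7017822-7017881 (mm9), mean of lines -0.066: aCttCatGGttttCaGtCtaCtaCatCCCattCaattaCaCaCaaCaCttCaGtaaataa
The 4 probes hold 38.3%, 35.0%, 36.7% and 33.3% G and C in this order, and single probes varied more than bins: that of Dync2h1 read -0.27, 0.13 and -0.062 in lines 1, 2 and 3.

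Gene-dense megabases lay above the rest of the autosomes in all 3 lines. Medians over gene-dense bins were 0.046, 0.086 and 0.041 for lines 1, 2 and 3, against -0.013, -0.0091 and -5.2e-05 in the other bins. The difference was 0.060, 0.095 and 0.041, with a mean of 0.065 ± 0.028 (SD, n = 3). The exact sign flip test over arrays (2-sided) gave p = 0.25, the smallest value that 3 arrays allow, so the design cannot reach 0.05. The difference had 1 direction in 3 of 3 lines and lay far below 0.585. It was spread over most bins: 75.6% of gene-dense bins were above 0 in line 1, 93.5% in line 2 and 76.4% in line 3, against 43.2%, 45.3% and 49.9% of the other bins.

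With the authors' deposited value table read as log10 ratios, the size of the shift depended on which of their values were used. In the authors' deposited value table, whose correction no label or header states, the difference was 0.032, 0.018 and 0.021 in lines 1, 2 and 3, a mean of 0.024. The direction was the same in 3 of 3 lines, and line 2 was no longer the highest.

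**Figure D1:**
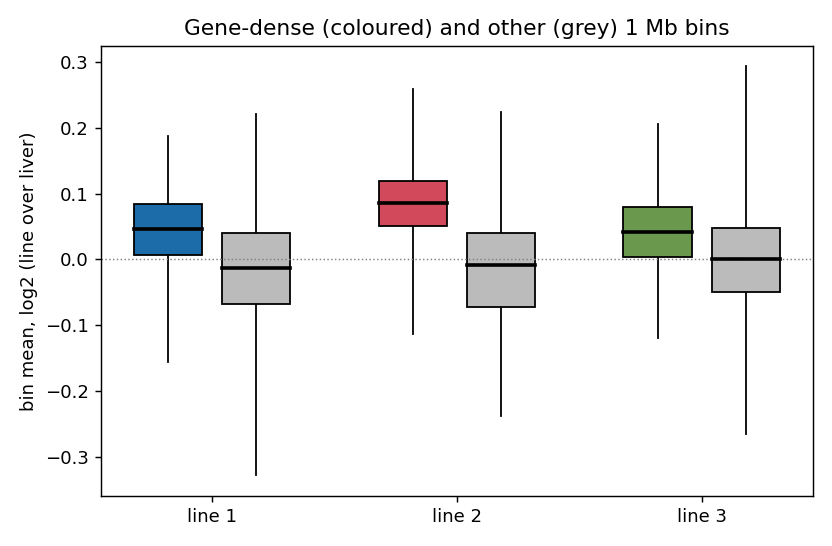
Bin means (log2 of line over liver, y axis) of gene-dense bins (coloured) and other autosomal bins (grey) in the 3 lines. Boxes span the quartiles, bars mark the medians and vertical lines reach the lowest and highest bin; the gene-dense median is the higher in each line, and the ranges overlap.

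The 2 groups of bins overlapped widely. Gene-dense bins ran from -0.16 to 0.19 in line 1, from -0.11 to 0.26 in line 2 and from -0.12 to 0.21 in line 3, and other bins from -0.33 to 0.22, -0.24 to 0.22 and -0.26 to 0.29. The spread over gene-dense bins was the smaller, with an SD of 0.060, 0.055 and 0.057 against 0.076, 0.077 and 0.073. Few gene-dense bins reached 0.2: 0 in line 1, 3 in line 2 and 2 in line 3, or 4 distinct bins, where 0.713% of all tested bins reached it in at least 1 line. In all 3 lines 0 of the 246 gene-dense bins were at or below -0.2, while 25, 15 and 7 of the 2137 other bins were. Such low bins were thus rare in both groups. Gene-dense bins also had more unique probes, a median of 95 against 67, and the part of this in their smaller spread was not tested.

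Tested bin by bin with limma over the 3 lines, 124 gene-dense bins were above 0, 6 were below and 116 did not pass (Benjamini-Hochberg adjusted over 2383 bins with 10 or more kept probes). That is 50.4% above and 2.44% below, where 18.2% of all tested bins were called above and 21.9% below. Of the other bins, 14.5% were called above and 24.1% below. Gene-dense bins made up 28.6% of all bins called above. In the value table the share was nearer to the background, with 48 gene-dense bins above and 19 below (19.5% and 7.72%, against 14.2% and 17.4% of all bins). Without line 2 the scanner signals gave 59 above and 5 below (24% and 2.03%, against 9.65% and 11.9% of all bins).

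The sign was shared by all 3 lines in most gene-dense bins. Above 0 in each line were 164 (66.7%, against 31.3% of all tested bins), below 0 in each line 14 (5.69%, against 30.9%), and 68 had mixed signs. The SD over the 3 lines of a gene-dense bin had a median of 0.034, close to the 0.036 of the other bins.

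The signals of both dyes moved. The Cy3 signal of liver DNA was lower in gene-dense bins than in the others by -0.024, -0.035 and -0.039 (log2 signal, difference of medians) on the arrays of lines 1, 2 and 3. The Cy5 signal of line DNA was higher by 0.024 and 0.057 for lines 1 and 2, and differed by -0.0043 for line 3. Lines 2 and 3, set against 1 liver label, thus had near-equal Cy3 differences, and their Cy5 differences were unlike. The part of these signal differences in the result was not tested.

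Within chromosomes the picture was the same. For each of the 18 autosomes with 3 or more gene-dense bins, their median was above that of the other bins of that chromosome in all 3 lines. Differences ran from 0.023 on chromosome 17 to 0.104 on chromosome 18 in line 1, from 0.058 on chromosome 16 to 0.137 on chromosome 15 in line 2, and from 0.016 on chromosome 2 to 0.080 on chromosome 15 in line 3. Chromosome 13, with only 2 gene-dense bins, gave 0.021, 0.044 and 0.011. The value table gave 15 of 18 chromosomes, with chromosomes 2, 16 and 19 at or below 0 in some line.

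**Figure D2:**
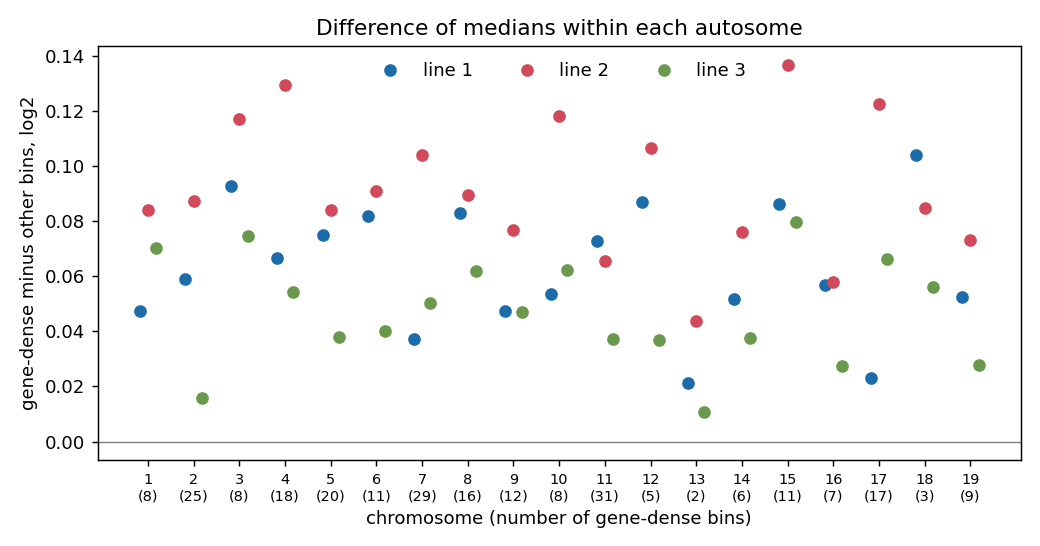
Median of gene-dense bins minus median of other bins (log2, y axis) within each autosome, a point for each line; the number of gene-dense bins is in brackets. All points lie above 0, chromosome 15 is the highest in lines 2 and 3, and chromosome 13 has only 2 gene-dense bins.

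Gene-dense bins are unevenly spread. Chromosome 11 had 31, which is 26.1% of its tested bins, chromosome 7 had 29 (21.3%), chromosome 2 had 25 and chromosome 5 had 20. Of all gene-dense bins, 50.4% were called above 0 and 2.44% below, and of all tested bins 18.2% and 21.9%. On chromosome 11, limma called 17 of 31 above 0 and 0 below. On chromosome 7, 8 of 29 were called above and 1 below. On chromosome 15 the gene-dense bins had medians of 0.080, 0.175 and 0.133 in lines 1, 2 and 3, and 9 of 11 were called above. Its other bins were also raised in lines 2 and 3, at 0.038 and 0.053. Without chromosome 15 the mean difference over all autosomes was 0.065.

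The difference was smaller against the nearest other bins on each side. Gene-dense bins exceeded these neighbours by medians of 0.047, 0.043 and 0.032 for lines 1, 2 and 3, a mean of 0.040 ± 0.0075 (SD, n = 3; exact sign flip p = 0.25). The neighbours themselves had a median of 12 gene names. Gene-dense bins were above their neighbours in 75.6%, 85.0% and 72.0% of cases in the 3 lines.

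Levels rose with gene number up to 25 to 29 names in each line, and beyond that in lines 2 and 3. Bins without a gene name had medians of -0.095, -0.117 and -0.054 in lines 1, 2 and 3, and bins with 5 to 9 names lay near 0, at -0.0059, 0.0039 and 0.0081. Bins with 20 to 24 names had 0.044, 0.073 and 0.032, those with 25 to 29 had 0.053, 0.095 and 0.050, and those with 30 or more had 0.041, 0.106 and 0.058. Among gene-dense bins, Pearson's r of level with gene number was -0.031, 0.32 and 0.25 in lines 1, 2 and 3 (246 bins of the same arrays, which share probe design and base composition). The threshold marks no step. The 37 bins with 19 names and at least 30 probes had medians of 0.038, 0.069 and 0.025, and the 23 with 20 names had 0.044, 0.069 and 0.036.

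**Figure D3:**
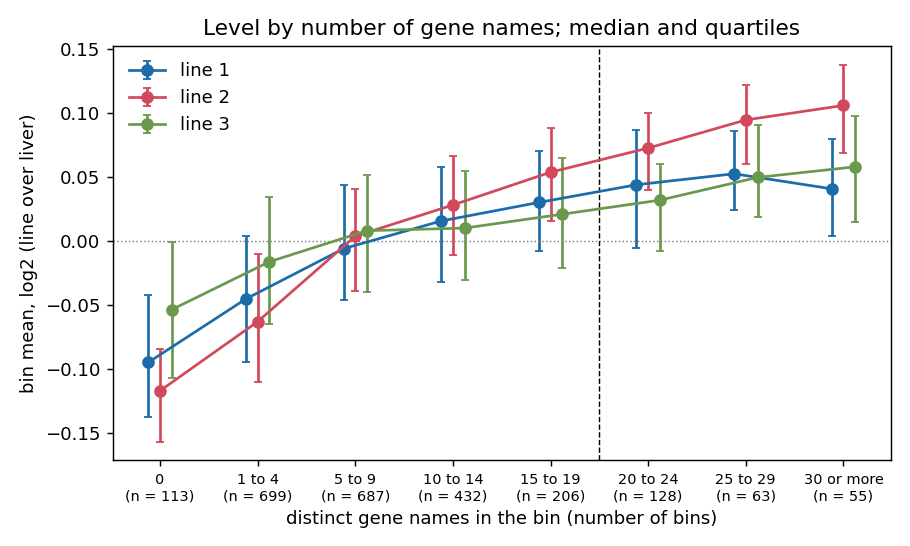
Bin means (log2 of line over liver, y axis) by the number of distinct gene names in the bin (x axis), as medians with quartiles for each line. The dashed line is the limit of 20 names; medians rise from bins without a name to bins with 25 to 29 names in each line.

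The higher level was not limited to probes inside named genes. In gene-dense bins, the 16794 probes with a gene name averaged 0.046, 0.077 and 0.025 in lines 1, 2 and 3, and the 6014 without one averaged 0.043, 0.103 and 0.081. In the other bins the same 2 kinds of probe averaged -0.0031, -0.0033 and -0.0059, and -0.015, -0.0058 and 0.019. Lines 2 and 3 were therefore higher at the unnamed probes of gene-dense bins than at the named ones, and line 1 was nearly level.

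The difference was present at each GC content of the probes. Between gene-dense and other bins, probes below 34% GC differed by 0.056, 0.098 and 0.044 in lines 1, 2 and 3, probes from 36% to under 38% by 0.056, 0.088 and 0.038, and probes of 40% or more by 0.046, 0.076 and 0.032. After bin means were corrected for the mean GC content of their probes, the difference was 0.048, 0.067 and 0.034 and the mean 0.0499, with the direction kept on 18 of 18 chromosomes. The GC content of the genome around the probes was not used here, and its part in the result was not tested.

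The high bins described here were chosen for a high mean and 1 sign in all lines, with at most 2 from a chromosome, so their direction is a description. That limit passed over 3 bins of chromosome 15, with means of 0.168, 0.152 and 0.143. The highest of all, on chromosome 15 from 84000001 to 85000000 (mm9), had 20 names over 89 probes. Its levels were 0.13, 0.26 and 0.21 in lines 1, 2 and 3 (mean 0.20 ± 0.062, SD, n = 3, limma adjusted p = 4.4e-10). With lines 2 and 3 averaged as 1 sample, the bin had a limma adjusted p of 4.1e-06. It holds Phf21b, a PHD finger gene whose 9 probes averaged 0.180, 0.226 and 0.195, and Parvb, an adaptor at focal adhesions, whose 8 probes averaged 0.142, 0.377 and 0.417. The 7 probes of 1810041L15Rik in the same bin averaged -0.041, 0.171 and 0.068 (limma adjusted p = 0.348). Line 1 was the lowest of the lines for all 3 of these names. It also holds Nup50 of the nuclear pore and Samm50 of the mitochondrial outer membrane, both named after the values were seen.

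On the same chromosome, the bin from 102000001 to 103000000, with Hoxc genes, the transcription factor gene Atf7 and the RNA-binding gene Pcbp2, had levels of 0.15, 0.18 and 0.20 (mean 0.176 ± 0.028, SD, n = 3). The bin on chromosome 5 from 135000001 to 136000000 had 0.162, 0.162 and 0.137. Many of its 21 names belong to the mouse counterpart of the region lost in Williams syndrome in people, among them Baz1b, a chromatin remodelling subunit, Limk1, a kinase of the actin cytoskeleton, and Eln, elastin (Limk1 and Eln were named after the values were seen). The bin on chromosome 11 from 115000001 to 116000000 had 38 names, Grb2, an adaptor between growth factor receptors and RAS, among them, and levels of 0.12, 0.20 and 0.14. The bin on chromosome 3 from 107000001 to 108000000 holds Csf1, a ligand of the inhibited receptor, and Gnai3, a G protein subunit. Its levels were 0.17, 0.15 and 0.11, although the 6 probes of Gnai3 averaged -0.084, 0.00063 and -0.093. All 5 bins described were also called above 0 in the value table, with means from 0.071 to 0.148 and limma adjusted p from 0.0051 to 0.017.

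The low bins were chosen in the same way, which passed over 1 bin of mixed sign on chromosome 10 (mean -0.066). On chromosome 5, from 88000001 to 89000000, levels were -0.094, -0.11 and -0.053 in lines 1, 2 and 3 (mean -0.087 ± 0.031, SD, n = 3; limma adjusted p = 0.0032). The 21 names there include the milk caseins Csn1s1 and Csn2, the enamel genes Ambn and Enam, and Smr2, a salivary gland gene, whose 3 probes averaged -0.14, -0.14 and -0.16; the caseins and enamel genes were named after the values were seen. On chromosome 7, levels of the bin from 50000001 to 51000000 were -0.11, -0.040 and -0.103. This bin holds the kallikreins Klk13 and Klk14, sialic acid-binding lectins of immune cells and zinc finger genes. The transcript ENSMUST00000142916 has 3 probes there and 8 in all, which averaged 0.043, 0.038 and -0.037 (limma adjusted p = 0.812). On chromosome 9, from 7000001 to 8000000, a row of matrix metalloproteinase genes lies beside Dync2h1, a motor of cilia, and Yap1, an effector of Hippo signalling, and levels were -0.083, -0.071 and -0.064. The 7 probes of Yap1 averaged -0.046, 0.016 and 0.020 (limma adjusted p = 0.956), and the 5 of Mmp20, an enamel protease, -0.231, -0.140 and -0.199 (0.016).

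The low bins were not all gene arrays. The bin on chromosome 8 from 3000001 to 4000000, at -0.085, -0.056 and -0.091, starts with Insr, the insulin receptor, whose 14 probes averaged -0.156, -0.067 and -0.025 (limma adjusted p = 0.187). Pnpla6, a phospholipase gene of the same bin, was lower, at -0.54, -0.27 and -0.36 over 3 probes (limma adjusted p = 0.0051). That on chromosome 17 from 57000001 to 58000000, with complement C3 and the exchange factor gene Vav1, both named after the values were seen, had -0.055, -0.014 and -0.11 (limma adjusted p = 0.047). Each low bin lost its call without at least 1 line. The limma adjusted p was 0.088 for the casein bin without line 2, 0.058 and 0.065 for the bins of chromosomes 7 and 8 without line 3, and 0.061 and 0.087 for that of chromosome 9 without lines 1 and 2 in turn. That of chromosome 17 was lost without any 1 of them (0.053 to 0.36). In the value table, 4 of the 5 low bins were called below 0, and the casein bin had an adjusted p of 0.072 from limma.

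Promoters of single genes from high and low bins are printed with their CG dinucleotides in capitals. Each is 300 bases around the start of a gene (RefSeq, build GRCm38.p6), for a gene of each of the 2 highest and of 2 low bins. They are examples: only Phf21b is the name with most probes in its bin. The low bin of chromosome 7, which lay below that of chromosome 8, is not shown.
Phf21b, minus strand, chr15:84855050-84855349 (GRCm38.p6): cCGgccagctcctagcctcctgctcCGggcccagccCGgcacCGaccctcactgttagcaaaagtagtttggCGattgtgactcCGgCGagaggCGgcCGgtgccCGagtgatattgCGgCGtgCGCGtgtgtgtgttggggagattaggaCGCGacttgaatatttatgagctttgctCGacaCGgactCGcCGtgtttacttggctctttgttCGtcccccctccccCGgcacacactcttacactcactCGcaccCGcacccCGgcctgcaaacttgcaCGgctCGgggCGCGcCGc
Atf7, minus strand, chr15:102625415-102625714 (GRCm38.p6): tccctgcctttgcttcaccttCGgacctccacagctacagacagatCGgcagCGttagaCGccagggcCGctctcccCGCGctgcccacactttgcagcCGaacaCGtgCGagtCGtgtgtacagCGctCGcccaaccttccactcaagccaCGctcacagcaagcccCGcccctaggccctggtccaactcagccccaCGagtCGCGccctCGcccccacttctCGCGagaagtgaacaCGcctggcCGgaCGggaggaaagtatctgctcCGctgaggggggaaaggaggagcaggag
Smr2, plus strand, chr5:88086306-88086605 (GRCm38.p6): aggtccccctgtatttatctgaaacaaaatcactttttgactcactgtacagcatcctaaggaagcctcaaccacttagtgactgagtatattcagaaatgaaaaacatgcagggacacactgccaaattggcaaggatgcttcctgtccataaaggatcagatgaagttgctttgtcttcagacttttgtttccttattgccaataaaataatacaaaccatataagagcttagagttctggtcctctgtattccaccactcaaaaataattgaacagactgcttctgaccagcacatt
Arhgef18, plus strand, chr8:3353187-3353486 (GRCm38.p6): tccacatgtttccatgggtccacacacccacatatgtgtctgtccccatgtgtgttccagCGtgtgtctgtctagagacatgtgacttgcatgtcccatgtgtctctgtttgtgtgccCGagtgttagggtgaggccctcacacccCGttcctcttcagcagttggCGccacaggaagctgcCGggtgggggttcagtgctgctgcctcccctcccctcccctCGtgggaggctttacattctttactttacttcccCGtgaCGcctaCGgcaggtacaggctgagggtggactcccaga
The promoter of Phf21b holds 30 CG dinucleotides and that of Atf7 25, against 0 in Smr2 and 9 in Arhgef18, an exchange factor of the small GTPase RhoA. Promoters of high and low bins were not compared as sets, so these counts show no difference between such bins.

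Over all bins the promoters were much alike. The 4007 promoters that could be matched to gene-dense bins had a median GC content of 59.0% and 17 CG dinucleotides, and the 7585 matched to other bins 59.7% and 18. All 27025 promoters had 52.7% and 7, so those that could be matched were not typical of all. Within gene-dense bins, the 432 promoters of bins with only clustered gene families, described next, had a median of 13.5, and the 794 of bins with only widely expressed list genes 19. The letters GGGCGG, on either strand, stood in 56.6% of the promoters of gene-dense bins, 55.7% of those of other bins and 35.9% of all promoters in the table. The letters TATAAA, on either strand, stood in 7.64% for gene-dense bins, 9.73% for other bins and 14.2% of all. These are shares of windows that hold the letters, not of bound sites.

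Gene-dense bins with at least 3 names of a clustered family and no widely expressed list gene had the lowest medians of 4 classes. The 24 bins with at least 3 members of a clustered family (olfactory and vomeronasal receptors, keratins, Hox, MHC, zinc finger, kallikrein, serine protease inhibitor or cytochrome P450 genes) and no widely expressed list gene had medians of -0.0098, 0.034 and -0.014 in lines 1, 2 and 3. Limma called 3 of them above 0 and 1 below, or 12.5% above, beside 18.2% of all tested bins. A second class of 43 bins held at least 1 gene of the widely expressed lists and no clustered family with at least 3 members. Those lists are ribosomal proteins, proteasome, RNA polymerase, respiratory chain and housekeeping genes. These 43 bins had medians of 0.060, 0.097 and 0.075, and limma called 28 above 0 and 0 below (65.1% above). List members were taken by name, so that related genes such as Rpl3l and Cox4i2 count, and expression was not measured. The 8 bins with both kinds had 0.059, 0.121 and 0.077, and the 171 with neither 0.050, 0.085 and 0.041. The counts of list members that define these classes were set after the values were seen, and no test is given. The order of the first 2 classes was the same in the value table (median of bins -0.023 against 0.045) and after probe GC correction (-0.0033 against 0.055). Median probe GC was near-equal, 37.0% in each. Most of the bins with clustered families only lie on chromosomes 7 and 17. The bins there that are not gene-dense had medians of -0.026, -0.019 and -0.042 on chromosome 7 in lines 1, 2 and 3. On chromosome 17 they had -0.014, -0.019 and -0.027. The classes were not compared within chromosomes, so the part of the chromosome in their order was not tested.

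**Figure D4:**
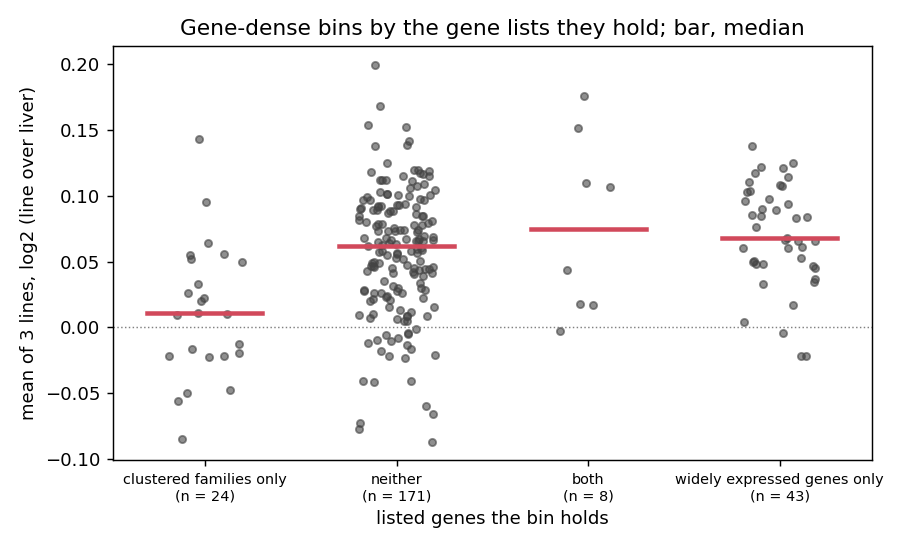
Mean of 3 lines for each gene-dense bin (log2 of line over liver, y axis), by the listed genes the bin holds (x axis), with a bar at the median. The 24 bins with clustered families only lie lowest, with a median of 0.011, and the 43 with widely expressed genes only have a median of 0.068; the classes overlap.

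Among the families, kallikreins were nearly all in gene-dense bins, 15 of 16 names, where 31.3% of all autosomal gene names were. The bin that holds 13 of them, on chromosome 7 from 51000001 to 52000000, had levels of -0.110, 0.024 and -0.064 in lines 1, 2 and 3, with line 2 apart from the others (mean -0.050 ± 0.068, SD, n = 3; limma adjusted p = 0.101). The bin with 14 serine protease inhibitor genes, relatives of alpha-1 antitrypsin, on chromosome 12 from 105000001 to 106000000, had -0.156, 0.027 and -0.039 (limma adjusted p = 0.0696). Zinc finger genes named Zfp were the largest family, with 167 of 292 names (57.2%) in gene-dense bins. Of the 19 bins with at least 3, limma called 2 above 0 and 1 below, and their medians were 0.0094, 0.038 and -0.0084. Among all gene-dense bins 50.4% were called above and 2.44% below, and among all tested bins 18.2% and 21.9%.

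Of 2 keratin bins, that with 15 of the genes, on chromosome 15 from 101000001 to 102000000, had -0.065, 0.147 and 0.073 (limma adjusted p = 0.10). The other, with 3 on chromosome 11, had 0.075, 0.128 and 0.082 and passed (0.0012). The only bin with 3 Hox genes is the second highest of all, given above, and of 2 olfactory receptor bins 1 was called above 0 (mean 0.143). The 2 bins of MHC genes had medians of -0.055, 0.063 and 0.025, and neither passed. The 2 bins of vomeronasal receptors lay near 0, with means of 0.0099 and 0.011. Of 6 bins with cytochrome P450 genes, 2 were called above 0: those of Cyp1a1 and Cyp1a2 on chromosome 9 (mean 0.107) and of the Cyp2d genes on chromosome 15 (mean 0.110). These few calls stand beside 50.4% of all gene-dense bins and 18.2% of all tested bins called above 0.

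Bins with genes of the widely expressed lists can be read against the 50.4% of all gene-dense bins, and 18.2% of all tested bins, that were called above 0. Respiratory chain subunits were spread over 21 gene-dense bins, with medians of 0.072, 0.098 and 0.076 in lines 1, 2 and 3, and limma called 15 above 0 and 0 below. RNA polymerase subunits had 7 of 11 bins above, among them that of Polr2a, the catalytic subunit of RNA polymerase II. Ribosomal protein genes had 6 of 12 above and proteasome subunits 5 of 10, with 0 below in each list, shares no larger than that of all gene-dense bins. The reference genes Eef2 and Gusb each lay in a gene-dense bin, with bin means of 0.084 and 0.037, of which the first passed (limma adjusted p = 0.0067) and the other did not (0.231).

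Of 38 genes of growth control and glioma on the list with an autosomal probe, 27 lay in gene-dense megabases, in 25 bins. That is 71.1% of the list, where 31.3% of all autosomal gene names lay in such bins. Limma called 17 of these bins above 0 and 0 below, where 18.2% of all tested bins and 50.4% of gene-dense bins were above. Trp53, the tumour suppressor, lies on chromosome 11 in a bin with 36 names that also holds Polr2a, and the bin had levels of 0.070, 0.156 and 0.118 in lines 1, 2 and 3 (mean 0.114 ± 0.043, SD, n = 3; limma adjusted p = 0.00012). Stat6, which carries the signal of interleukin 4, lies on chromosome 10 in the bin from 127000001 to 128000000, among 43 names, with 0.120, 0.135 and 0.105 (mean 0.120 ± 0.015, SD, n = 3). Rela, a subunit of NF-kappaB, lies in a bin of chromosome 19 with 0.091, 0.141 and 0.122. In these bins all 3 lines were on the same side of 0. The genes' own probes differed from their bins. The 2 of Trp53 gave 0.43, 0.39 and 0.37, the 3 of Stat6 0.26, 0.30 and 0.27, and the 2 of Rela -0.30, 0.13 and 0.0094.

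In the bin of Csf1, described above, the 1 probe for Csf1 itself gave -0.52, -0.26 and -0.29, on the opposite side of 0 from its bin. Erbb2, a receptor tyrosine kinase, shows the same contrast, with -0.19, -0.078 and -0.14 at its 2 probes and 0.081, 0.111 and 0.117 in its bin. A value of 1 or 2 probes and a bin mean of about 100 probes can thus differ in sign. Il34, also on the list, was on the same side of 0 as its bin. Its 7 probes gave 0.113, 0.165 and 0.170 (limma adjusted p = 0.031), and its bin had 0.135, 0.093 and 0.080. Pdgfrb, a receptor of PDGF, lies on chromosome 18 with Csf1r, the inhibited receptor, in a bin of 24 names (Csf1r was named after the values were seen) at 0.029, 0.101 and 0.048 (limma adjusted p = 0.046). Some bins of growth genes lay near 0: Akt2, a kinase of the PI3 kinase pathway, in a bin at 0.026, 0.029 and -0.026 (limma adjusted p = 0.783), Notch3 at -0.024, 0.0042 and -0.048 (0.493), and Vegfa at -0.073, 0.067 and 0.017 (0.924). In the bin of Vegfa, line 1 was below 0 and the others above.

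Of the 6 bins with the most names, the last of which tie at 43, 5 were called above 0. They are on chromosome 7 from 52000001 to 53000000, with 52 names, and from 31000001 to 32000000, with 46; on chromosome 10 from 79000001 to 80000000, with 50, and from 80000001 to 81000000, with 45; and the Stat6 bin with 43. The other bin with 43, on chromosome 17 from 34000001 to 35000000 with MHC genes, had -0.050, 0.115 and 0.066 and did not pass (limma adjusted p = 0.162). Line 1 was the lowest in the first 4, at 0.033, 0.032, 0.041 and -0.043, where line 2 had 0.170, 0.173, 0.163 and 0.170. Without line 2 these 4 bins no longer passed (limma adjusted p from 0.112 to 0.370). The bin from 80000001 to 81000000, with Eef2 and Map2k2, a kinase of the MAPK cascade, missed the threshold in the value table (limma adjusted p = 0.114) and after probe GC correction (0.232), with lines 2 and 3 averaged (0.175), with the median of probes (0.145), with named probes only (0.076) and without line 3 (0.220). The bin with 46 names missed it in the value table (0.167). In the bin of chromosome 10 from 80000001 to 81000000, the 3 probes of Map2k2 gave -0.12, 0.063 and 0.049.

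With the scanner signals, gene means repeated the pattern with less contrast. Of 1858 genes with 3 or more probes in gene-dense bins, limma called 400 above 0 and 143 below (21.5% and 7.70%), where 14.5% and 9.85% of all 9124 genes were. Medians were 0.055, 0.063 and 0.0086 over genes in gene-dense bins, against 0.0098, 0.0066 and -0.0040 over the other genes. Ccnd3, a cyclin of the G1 phase, had the highest mean among the listed growth genes tested, with 0.194, 0.352 and 0.443 over 11 probes (limma adjusted p = 0.0068), in a bin at 0.081, 0.124 and 0.049. Idh2 passed above 0 and Pdgfb below (limma adjusted p = 0.010 and 0.027), in bins that did not pass (0.474 and 0.145). In the value table limma called 201 genes of gene-dense bins above 0 and 203 below, near-equal numbers. With lines 2 and 3 averaged as 1 sample it called 158 and 55, and without line 2 it called 177 and 103. Shares of all genes called under these alternatives are not given, so the counts cannot be set against a background.

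**Figure D5:**
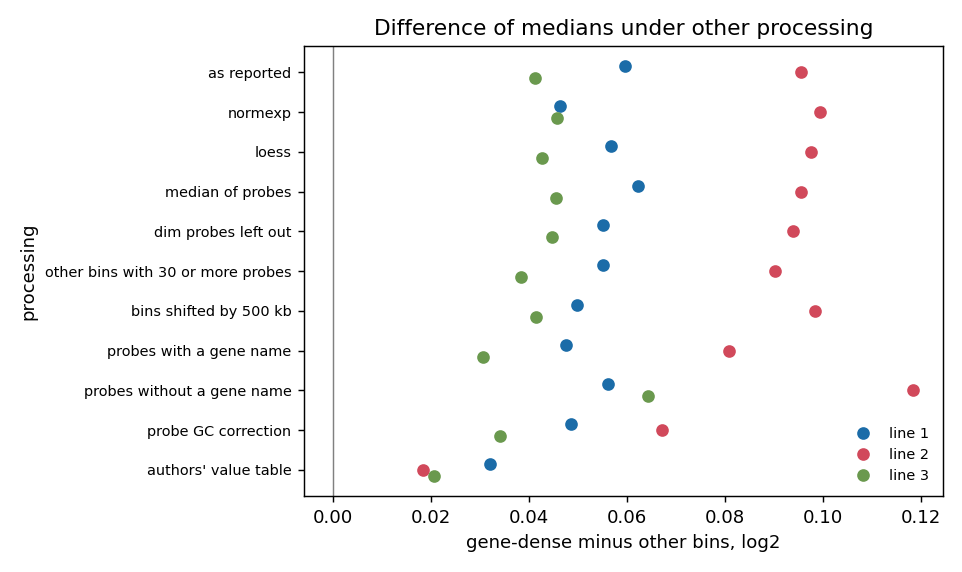
Median of gene-dense bins minus median of other bins (log2, x axis) in each line, with the values as reported at the top and other processing below. Each point is above 0, and the authors' value table gives the smallest mean difference, 0.024, with line 2 lowest.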

How the data were processed

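Spot intensity values were made by the authors with Agilent Feature Extraction 10.7.3.1, with background subtraction, detrending and dye normalisation switched on, per the file headers. The deposited scanner files also hold a log10 ratio, and the deposited value table holds log10 ratios of the same spots, with medians of 0.000435, -0.00146 and -0.00271. They correlated at 0.867, 0.844 and 0.884 with the scanner ratio, which shows direction. A correlation does not show scale, so log10 was taken as the scale of the value table. Centring is not given. Coordinates are mm9.

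Of 180880 spots per array, 6575 controls and 160 to 179 outlier-marked spots were left out, and spots of a probe were averaged. No spot was saturated, and 96.3% to 99.4% were well above background. The number of arrays limits the precision. Bins with 10 or more kept probes were tested, 2383 of 2397. Means were tested against 0 with limma 3.58.1 in R 4.3.3 (lmFit, eBayes, 2-sided, Benjamini-Hochberg, threshold 0.05), and other steps used Python 3.11.15, numpy 2.4.6 and pandas 2.3.3. The fit was tested on simulated data. Members, lists and tests were chosen with earlier results of these data known. Named were the 5 highest and 5 lowest gene-dense bins with the same sign in each line (a chromosome giving 2 at most), the 5 with most names (and the bin that ties for the last place, added after its values were seen), members of the lists, and up to 4 well-covered genes of each named bin. Lists of replication-dependent histones and chemokines had no gene-dense bin with 3 members.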

Additional observations from a re-analysis of the deposited data

How the results depend on the processing

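The difference between gene-dense and other bins was above 0 under each alternative run, with means from 0.024 (authors' value table) to 0.080 (probes without a gene name), and from 0.050 to 0.078 with a line left out; no value reversed. Calls moved more. Gene-dense bins past limma went from 130 (124 above, 6 below) to 67 (48 and 19) in the value table. At 15 or more names they were 207 of 452 bins (192 and 15), at 30 or more 32 of 55 (32 and 0), and with RefSeq names only 66 of 120 (66 and 0); these count other bins. With a line left out they ranged from 64 to 111 (59 to 108 above, 2 to 5 below), lowest without line 2, except below 0, lowest without line 3. Chromosomes higher in each line went from 18 of 18 to 9 of 10 compared at 30 or more names, and to 15 of 18 with bins shifted by 500 kb or in the value table. Genes past limma went from 543 to 213 (158 above, 55 below) with lines 2 and 3 averaged as 1 sample, 201 above 0 in the value table, and 280 to 713 (177 to 505 above, 70 to 208 below) with a line left out, lowest without line 2 except below 0, lowest without line 3. The gene counts are given without the shares of all genes under the same alternatives. Apart from other numbers of bins or samples, the cause was not tested. Of 208 values of named bins, 178 stayed on their side of the threshold, 30 missed it and 0 reversed. Probe GC correction, RefSeq names, leaving out chromosome 15 and all alternatives for genes were chosen after the data were seen. Correction by the GC content of the genome was not run. No paired analysis was possible because all arrays belong to 1 group.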

Other observations

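Chromosome X, which the choice of bins left out, had 3 bins that met the same limits of probes and names. Centred on the autosomal median, they ran from 0.0070 to 0.101 in line 1, from -0.033 to 0.074 in line 2 and from -0.019 to 0.0026 in line 3. Their median exceeded that of the 145 other X bins by 0.075, 0.090 and 0.042 in lines 1, 2 and 3. Each of these differences is over 3 bins only and was not tested.

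Base composition went with the level of gene-dense bins in 1 line more than in the others. Across the 246 bins, Pearson's r of the bin mean with the mean GC content of its probes was -0.101, 0.30 and 0.064 in lines 1, 2 and 3. Probe GC correction took the difference of line 2 from 0.095 to 0.067, that of line 1 from 0.060 to 0.048 and that of line 3 from 0.041 to 0.034.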
